A study of Mus musculus with 8 samples.

Results

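The genes that make cholesterol and fatty acids, together with the genes that control their transcription and that export cholesterol, were examined in cultured mouse optic nerves with and without lithium. The 34 genes were taken as a named list by their roles: the enzymes of the early mevalonate steps, the enzymes of the late sterol steps, the control of the sterol regulatory element binding proteins (SREBP), fatty acid synthesis, and efflux under the liver X receptors (LXR). A probe set is a group of short probes for 1 transcript on an Affymetrix array, and a gene was read from the probe set with the highest mean log2 signal among those annotated to its symbol alone. This gave 32 of the 34 genes, of 18193 genes in all. The remaining pair, Acat2 and Nr1h2, was not analysed here.

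Optic nerves of mice aged 35 to 45 days were kept as organotypic cultures for 3 days, with saline (control, 4 samples) or with 20 mM lithium chloride (lithium, 4 samples). The sample labels give the strain as C57BL/6 and 6 nerves per sample. The paper names C57/BL10 mice and fewer nerves than these samples would need in all, so that the size of each pool is uncertain. The labels name no gene alteration in either group. The nerve was cultured with the retina attached, after the arachnoid had been removed, on membranes in a medium with horse serum, so that both groups were severed tissue with an outside supply of lipid. Each sample pooled nerves and was measured on 1 array of its own. Whether the 4 samples of a treatment came from different animals or culture runs is not stated, and the p-values therefore speak of the spread among these samples alone, which may be technical. Because the nerve is a mixture of cells, fewer cells of a type and less RNA per cell cannot be told apart.

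Cholesterol is built from acetyl-CoA through mevalonate and squalene, and in white matter most of it lies in the myelin that oligodendrocytes wrap around axons. Brain and nerve make their cholesterol locally, since lipoproteins of the blood do not pass into the tissue. When sterols run low, Scap carries the SREBP proteins to the Golgi, where they are cut and become active transcription factors for these enzymes, Insig proteins hold them back when sterols are plentiful, and LXR answers surplus sterol by raising the efflux transporters.

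Of the 32 measured genes 1 fell with lithium, 0 rose and 31 did not pass the test (limma, Benjamini-Hochberg adjusted p under 0.05 over all probe sets). Over all genes the same test called 2.05% lower and 1.18% higher, so that 1 gene of 32 lies near the background share. The gene that fell was Insig1, the sterol sensor of the endoplasmic reticulum that retains Scap and is itself an SREBP target. The log2 difference, lithium minus control, was below 0 for 25 of the 32 genes (78.1%), against 50.3% of all genes. It was below 0 for 22 of them where each array was centred on its median. Its median was -0.27 (range -1.33 to 0.27, and -0.18 after that centring), against -0.00 over all genes (0.08 after that centring). By group, the median was -0.46 for the 6 early mevalonate genes, -0.26 for the 11 late sterol genes (-0.13 without control replicate 4 and -0.12 with array weights), -0.30 for the 6 SREBP control genes, 0.05 for the 6 fatty acid genes and -0.51 for the 3 LXR genes. None of the 32 reached the limits that the study set. These were a change of at least 2-fold, with a level of 200 read here as the mean signal of the higher group. Of all genes 68 passed these limits on any of their probe sets, whereas the 32 were judged on 1 probe set each.

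Promoter sequence is shown for Insig1 and for Hmgcs1, the gene with the only sterol regulatory element letters found. It is also shown for 4 of the enzymes that passed the test as lower only with a block or a term for pairs of arrays. Fdps, an enzyme that also did so, is not shown. The sequences come from RefSeq on GRCm38.p6 and read 5′ to 3′ on the strand of the gene, each being 120 bases of the window from 250 bases before to 50 after the transcription start. Capitals mark CCAAT or its reverse complement ATTGG, the letters bound by the nuclear factor Y that works beside SREBP, and, in Hmgcs1, TCACNCCAC, a spelling of the sterol regulatory element.
Insig1, chr5:28071162-28071281, plus strand: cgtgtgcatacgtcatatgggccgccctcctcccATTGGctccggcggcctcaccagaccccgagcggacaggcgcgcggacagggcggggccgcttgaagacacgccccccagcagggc
Hmgcs1, chr13:119690151-119690270, plus strand: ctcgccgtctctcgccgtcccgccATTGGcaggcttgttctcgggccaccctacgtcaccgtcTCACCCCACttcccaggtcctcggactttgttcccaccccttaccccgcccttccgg
Mvk, chr5:114444149-114444268, plus strand: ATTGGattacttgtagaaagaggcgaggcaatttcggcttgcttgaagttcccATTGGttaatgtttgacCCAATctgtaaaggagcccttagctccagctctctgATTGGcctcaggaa
Mvd, chr8:122443423-122443542, minus strand: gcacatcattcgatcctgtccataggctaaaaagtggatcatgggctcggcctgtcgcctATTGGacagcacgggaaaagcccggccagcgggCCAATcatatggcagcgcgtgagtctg
Tm7sf2, chr19:6067851-6067970, minus strand: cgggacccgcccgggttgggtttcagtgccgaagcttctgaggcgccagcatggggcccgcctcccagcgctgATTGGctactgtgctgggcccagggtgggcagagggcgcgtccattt
Hsd17b7, chr1:169969206-169969325, minus strand: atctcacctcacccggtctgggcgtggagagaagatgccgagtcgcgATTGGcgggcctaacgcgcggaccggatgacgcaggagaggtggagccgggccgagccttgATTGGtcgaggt

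Promoters of 25 of the 32 measured genes were found, 35 windows of 300 bases in all. CCAAT on either strand was in 21 of the 35 windows (60.0%), those of 20 of the 25 genes, against 37.4% of the 32851 promoters of the genome. Fdps and Stard4, which passed with the term for array pairs, are not among these 20 genes, for want of a match or of a window. The letters TCACNCCAC on either strand were in 1 of the 35 windows, that of Hmgcs1 at base -137 counted from the transcription start, and in 1.24% of all promoters. In Hmgcs1 this match overlaps none of the CCAAT matches. A match describes the letters of the window only.

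**Figure D1:**
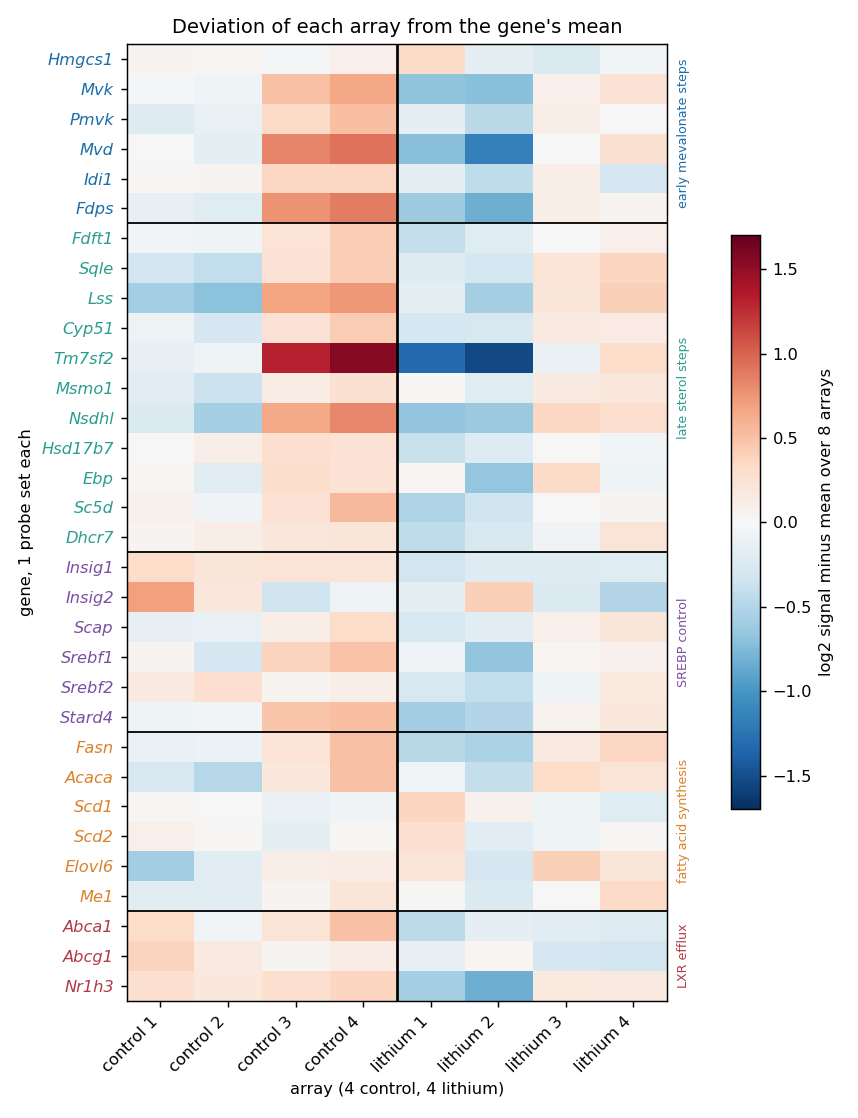
Heat map of the 32 measured genes (rows, grouped by role) on the 8 arrays (columns, 4 control and 4 lithium). Colour is the log2 signal minus the gene's mean log2 signal over the 8 arrays, and in Tm7sf2, Mvd and Fdps control arrays 3 and 4 are the reddest and lithium arrays 1 and 2 the bluest, whereas Insig1 changes at the line between the groups.

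Among the SREBP control genes, Insig1 had a signal of 1394, 1300.5, 1321 and 1302 on control arrays 1 to 4 and of 894, 963, 965 and 974 on lithium arrays 1 to 4. All lithium arrays lay below all control arrays, and the spread within either group was small beside the gap. The mean signal fell from 1329 ± 43.8 to 949 ± 37.3 (SD, n = 4 each), to 71.4% of control, a log2 difference of -0.49 (SE 0.06, 95% confidence interval -0.62 to -0.35, limma adjusted p = 0.0164). Its array signals showed no difference between arrays 1 and 2 and arrays 3 and 4 (0.01 on the log2 scale), and the difference was -0.54 within the former and -0.44 within the latter. Insig1 has 1 probe set, so that no other probe set was there to compare.

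The call on Insig1 was sensitive to the fit. With the replicate number as a block the adjusted p was 0.0765, without control replicate 3 it was 0.0525, and in the other 7 fits that left out 1 array Insig1 passed, with adjusted p-values from 0.0364. After centring each array on its median, which moved the median of all genes to 0.08, the log2 difference was -0.40 and did not pass.

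Insig1's partners gave lower mean signals in lithium, and none passed the test. Srebf2, the SREBP that mainly drives the cholesterol genes, had signals of 488, 536, 453 and 478 in control and of 365, 331, 419.8 and 497 in lithium. Lithium replicate 4 lay among the controls, so that the groups overlapped, and the log2 difference of -0.29 (95% confidence interval -0.61 to 0.03, limma adjusted p = 0.319) came from arrays 1 and 2 (-0.56) and hardly from arrays 3 and 4 (-0.03). Srebf1, the SREBP gene tied to fatty acid synthesis, had signals of 118, 94.0, 149 and 159.9 in control and of 110.1, 71.6, 117 and 120.3 in lithium, which overlapped (log2 difference -0.31, limma adjusted p = 0.572). Scap, the escort protein, differed by -0.08 and Insig2, the second retention protein, by -0.24. Stard4, a carrier of cholesterol between membranes and an SREBP target, had mean signals of 334 ± 73.0 and 251 ± 66.2 (log2 difference -0.43, limma adjusted p = 0.42).

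**Figure D2:**
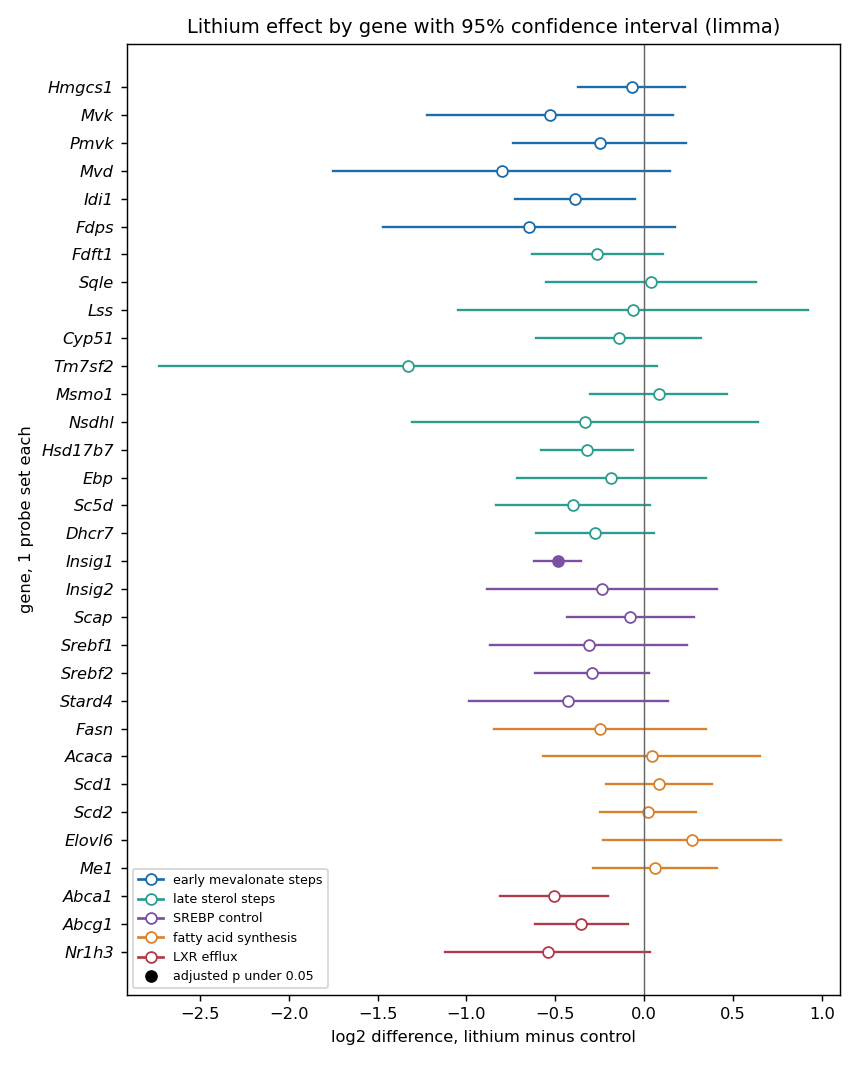
Log2 difference in signal, lithium minus control (x axis), for the 32 measured genes (y axis), with 95% confidence intervals from limma over 4 arrays per group and colours for the role of the gene. Only the point for Insig1 is filled (adjusted p under 0.05), and the interval of Tm7sf2, from -2.73 to 0.08, is the widest.

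The early mevalonate enzymes had lower mean signals in lithium for 6 of 6 genes, and none passed the test. Hmgcs1, the synthase that commits acetyl units to the pathway, had signals of 1722, 1703, 1631 and 1778 in control and of 2082, 1489, 1400.3 and 1617 in lithium. Lithium replicate 1 was the highest of the 8 arrays and the other lithium arrays were below every control array. The log2 difference was -0.07 (SE 0.13, 95% confidence interval -0.37 to 0.23, limma adjusted p = 0.846). Of the 5 probe sets of Hmgcs1, all had a lower mean log2 signal in lithium, and 1 that is dimmer than the one used, singled out after its values were seen, passed the test, with mean signals of 1140.4 and 838 (log2 difference -0.45, limma adjusted p = 0.0415). The probe sets of Hmgcs1 thus differed in size of change and in call.

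On the probe sets used, the next enzymes of the chain had log2 differences further below 0 than Hmgcs1, and differences between genes were not tested. Averaging the probe sets of a gene gave -0.28 for Hmgcs1, -0.29 for Mvk and -0.25 for Pmvk. It gave -0.65 for Mvd, -0.45 for Idi1 and -0.32 for Fdps. The second probe set of Fdps had mean signals of 0.18 in control and 0.27 in lithium. Signals under 1 were set to 1, so its log2 difference was 0 and drew the Fdps average towards 0. Mvk, the mevalonate kinase, had signals of 74.0, 72.0, 107 and 119 in control and of 47.0, 46.1, 80.0 and 89.9 in lithium (log2 difference -0.53, SE 0.29, limma adjusted p = 0.418). Mvd, the decarboxylase that yields isopentenyl diphosphate, had signals of 149.7, 135, 267 and 285 in control and of 91.9, 67.1, 150.5 and 179 in lithium (log2 difference -0.80, SE 0.40, limma adjusted p = 0.363). In both genes the lithium arrays were below the control arrays of the same numbers, while arrays 3 and 4 of lithium exceeded arrays 1 and 2 of control.

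Fdps, which makes farnesyl diphosphate, had signals of 331, 314, 616 and 666 in control and of 238, 204, 388 and 374 in lithium (log2 difference -0.65, SE 0.35, limma adjusted p = 0.401). The same overlap across the numbers held there. Idi1, the isomerase of the isoprene units, had mean signals of 709.9 ± 89.2 and 544 ± 88.7 (log2 difference -0.39, limma adjusted p = 0.219, unadjusted p = 0.0301), and Pmvk, the second kinase, of 303 ± 74.0 and 252 ± 41.8 (log2 difference -0.25).

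Of the 11 late sterol enzymes 9 had a negative and 2 a positive log2 difference. Tm7sf2, a sterol reductase, was the furthest from 0 of all 32 genes, with signals of 68.2, 71.6, 186 and 219 in control and of 30.1, 25.8, 69.3 and 93.5 in lithium. On arrays of the same number lithium was below control in all 4 cases, but lithium arrays 3 and 4 reached the level of control arrays 1 and 2. The mean went from 136 ± 77.9 to 54.7 ± 32.5, which is 39.9% of control by log2 means (log2 difference -1.33, SE 0.59, limma adjusted p = 0.305), and with the replicate block its adjusted p was 0.0477.

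Sqle, the squalene epoxidase that is the second control point of the pathway, was near level. Its signals were 377, 352, 559 and 632 in control and 405, 384, 553 and 607 in lithium, with a log2 difference of 0.04 (95% confidence interval -0.55 to 0.63, limma adjusted p = 0.988). Hsd17b7, the sterol ketoreductase, had signals of 431, 469, 529 and 513 in control and of 334, 371, 434 and 419 in lithium, with lithium replicate 3 just above the lowest control. Its log2 difference was -0.32 (SE 0.11, limma adjusted p = 0.19, unadjusted p = 0.0229), although only 2 of its 4 probe sets had a negative difference.

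The remaining late enzymes ranged from -0.40 to 0.08. Sc5d, the lathosterol desaturase, stood at -0.40 (559 ± 105 and 424 ± 79.2), Nsdhl, which helps to remove the methyl groups at carbon 4, at -0.33, Dhcr7, the last reductase to cholesterol, at -0.28 and Fdft1, the squalene synthase, at -0.26. Ebp, a sterol isomerase, differed by -0.18, Cyp51, the lanosterol demethylase, by -0.14, Lss, which closes the sterol rings, by -0.06, and Msmo1, a methyl oxidase, by 0.08. The lowest adjusted p among these 8 was that of Sc5d, 0.316.

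Arrays 3 and 4 stood above arrays 1 and 2 in both groups for 20 of the 32 genes, 14 of them among the 17 cholesterol enzymes, whereas 16% of all genes did so. The median log2 difference of arrays 3 and 4 over arrays 1 and 2 was 0.41 for the 32 genes and 0.04 for all genes, and Tm7sf2 had the largest, 1.53, larger than its lithium difference. No source names these pairs as a batch. The pattern came from the signals, and what it stems from was not tested.

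Within each pair of arrays the lithium difference could be read with that gap removed. It was negative within both pairs for 23 of the 32 genes, against 32.2% of all genes, and its median was -0.28 within arrays 1 and 2 and -0.24 within arrays 3 and 4. With a term for the array pairs, 7 of the 32 genes were lower and 0 were higher, against 5.71% and 3.00% of all genes. The 7 were Tm7sf2 (limma adjusted p = 0.00745), Insig1 (0.0121), Fdps (0.0146), Stard4 (0.0168), Mvk (0.0225), Mvd (0.0230) and Hsd17b7 (0.0370). This term was chosen with earlier results of these data known, and leaving out each array in turn left 2 to 6 of them, with Tm7sf2 and Insig1 in all 8 fits, Fdps in 7 and Hsd17b7 in 0.

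**Figure D3:**
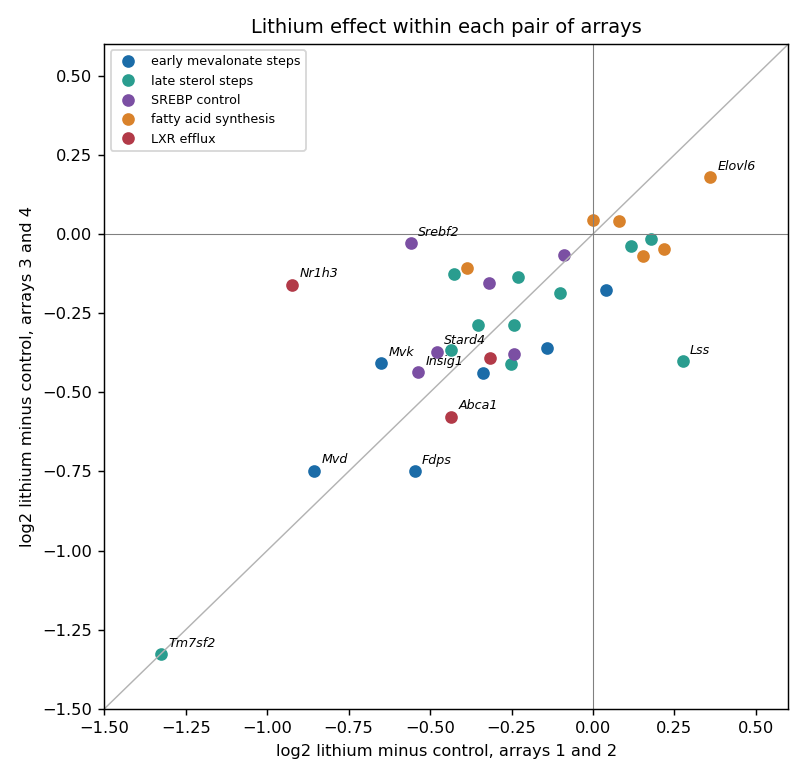
Log2 difference in signal, lithium minus control, within arrays 1 and 2 (x axis) and within arrays 3 and 4 (y axis), a point for each of the 32 measured genes coloured by role, with the line of equal values. Tm7sf2 lies at -1.33 on both axes, Mvd at -0.86 and -0.75, and the fatty acid genes run from -0.39 (Fasn) to 0.36 (Elovl6) on the x axis and from -0.11 to 0.18 on the y axis.

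Of the 6 fatty acid genes 5 had a positive and 1 a negative log2 difference, and none passed the test. Their median of 0.05 was -0.040 with averaged probe sets, -0.0037 within arrays 3 and 4 and -0.0047 without lithium replicate 4, and its difference from the sterol enzymes was not tested. Fasn, the fatty acid synthase, had signals of 339, 345, 434 and 521 in control and of 268, 255, 411 and 472 in lithium (log2 difference -0.25, 95% confidence interval -0.84 to 0.35, limma adjusted p = 0.683). Scd1, the stearoyl-CoA desaturase, had signals of 1769.8, 1729, 1606 and 1677 in control and of 2249.9, 1837, 1656 and 1519 in lithium (log2 difference 0.08, 95% confidence interval -0.21 to 0.38). Scd2, its form abundant in brain, had signals of 1659, 1589, 1389 and 1592 in control and of 1902, 1385, 1472 and 1593 in lithium. The groups overlapped for all 3 genes, and for Scd2 the log2 difference was 0.02 (95% confidence interval -0.25 to 0.29, limma adjusted p = 0.979). Acaca, the carboxylase that makes malonyl-CoA, differed by 0.04, Me1, which supplies NADPH, by 0.06 and Elovl6, which lengthens palmitate, by 0.27.

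In the LXR group all 3 measured genes had lithium arrays below every control array. Such separation held for 4 of the 32 genes, these 3 and Insig1, against 8.92% of all genes in the lower direction, and for 0 in the higher direction, against 6.47%. Abca1, the transporter that loads cholesterol onto apolipoproteins, had signals of 295, 231, 279.7 and 335 in control and of 175, 213, 207 and 203 in lithium. Abca1 was 70.4% of control (285 ± 43.0 and 199.5 ± 17.1), a log2 difference of -0.51 (SE 0.13, limma adjusted p = 0.0982), and 3 of 3 probe sets were lower.

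Abcg1, which passes cholesterol to larger lipoproteins, had signals of 409, 348, 325 and 342 in control and of 286, 322, 257 and 252 in lithium. It lay at 78.3% of control (log2 difference -0.35, SE 0.11, limma adjusted p = 0.154). Nr1h3, the gene of LXR alpha, was dim, with signals of 16.3 to 18.6 in control and of 8.09 to 16.1 in lithium (log2 difference -0.54, limma adjusted p = 0.31), and lithium arrays 1 and 2 (-0.92) carried the difference more than arrays 3 and 4 (-0.16). All 32 genes exceeded the highest of 27 poly-A control probe sets on all 8 arrays. That highest value was 2.13 to 5.64 per array, below the median signal of 12.3 to 17.5. Passing it is therefore a weak check of detection.

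**Figure D4:**
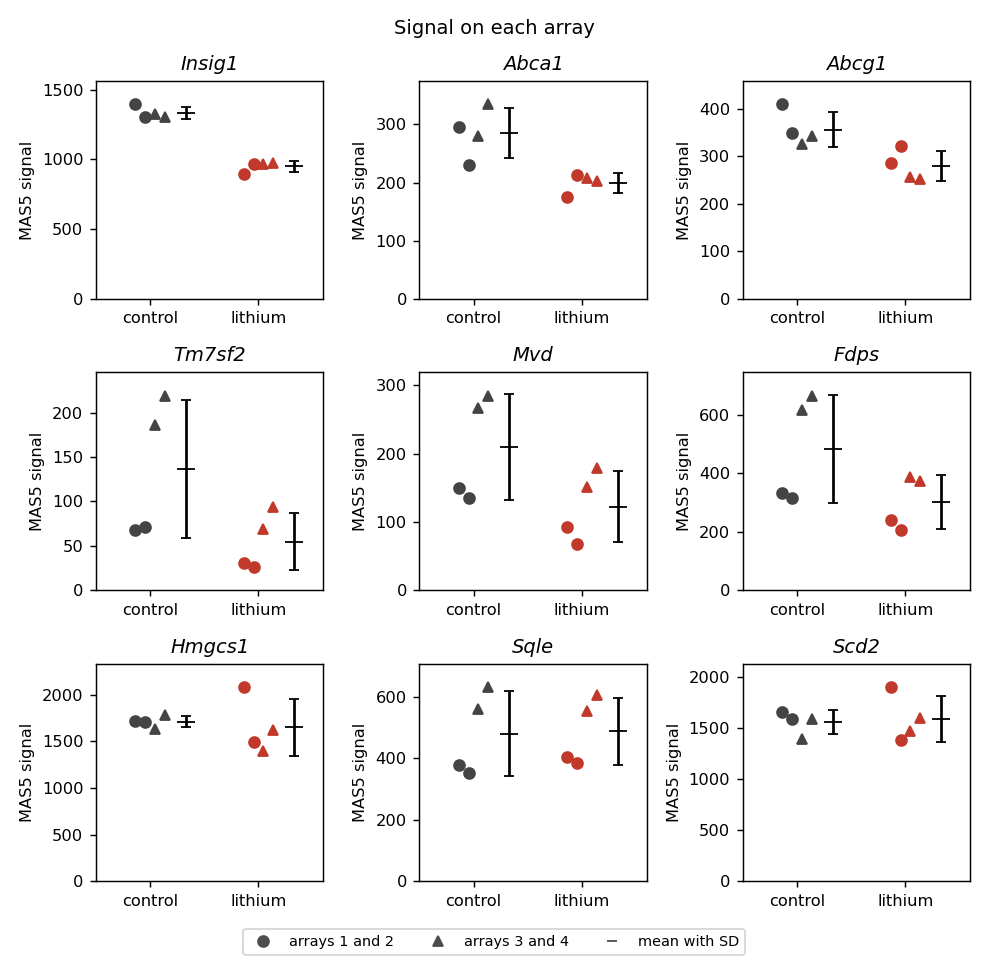
MAS5 signal (linear intensity, y axis from 0) of 9 genes on the 4 control and 4 lithium arrays, with circles for arrays 1 and 2, triangles for arrays 3 and 4 and a bar for the mean with SD. The 4 lithium points of Insig1, Abca1 and Abcg1 lie below all control points, Tm7sf2, Mvd and Fdps show higher triangles than circles in both groups, and Hmgcs1, Sqle and Scd2 overlap.

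More than 1 probe set was present for 22 of the 32 genes. The direction differed between probe sets of Lss, Hsd17b7, Scd1 and Scd2. In Fdft1 and Scap the probe sets of opposite direction were dim, with group means of at most 9.21, and the second probe set of Fdps lay under the floor of 1.

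The other genes of the same pathways gave 2 calls. Of 6 other cholesterol genes measured, including Lbr and the SREBP proteases Mbtps1 and Mbtps2, 0 passed the test (median log2 difference -0.25). Of 15 other fatty acid genes 1 passed, Lpin1, the phosphatidate phosphatase and coactivator, which fell from 271 ± 40.8 to 162 ± 16.6 (log2 difference -0.74, limma adjusted p = 0.0438, 0.113 with the replicate block), and the median was -0.08. Of 17 other LXR and cholesterol transport genes 1 passed, Lpl, the lipoprotein lipase, which fell from 177 ± 39.2 to 66.3 ± 12.7 (log2 difference -1.41, limma adjusted p = 0.0234, 0.0901 with the replicate block), and the median was -0.06. Of those 17 genes 9 had a negative and 8 a positive log2 difference. Lithium arrays lay below every control array for 3 of them, against 8.92% of all genes. They lay above for 1, Npc1 (log2 difference 0.40, limma adjusted p = 0.0899), against 6.47%. Of 7 enzymes of myelin lipids, among them Ugt8a and Fa2h, 0 passed, with a median of -0.03. Aspa of these 7 had lithium arrays above every control array (log2 difference 0.86, limma adjusted p = 0.0647), and 4 had a negative log2 difference.

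Markers of cell types in the nerve, and of adipocytes, skeletal muscle and photoreceptors, were read beside these results. The summed signal of 10 oligodendrocyte markers was 11567 to 12482 in control and 11737 to 14934 in lithium, with 0 of 10 past the test, and for 10 astrocyte markers it was 7481 to 8096 and 6675 to 7884, also with 0 of 10. For 7 oligodendrocyte precursor markers the sums were 1779.6 to 2147 in control and 1494 to 1783 in lithium, with 0 past the test. Of these, Pdgfra (log2 difference -1.52, limma adjusted p = 0.124) and Lhfpl3 (-1.83, 0.0672) had lithium arrays below every control array. Olig2 (0.77, 0.103) had them above every control array. The median log2 difference of the 7 was 0.08, and 4 were positive. For 7 microglia markers the sums were 2219 to 3145 and 2005 to 2709, also with 0 past the test. The 8 fibroblast markers summed to 4084 to 6725 in control and to 1074 to 2867 in lithium, and Col3a1 and Lum of these fell (limma adjusted p = 0.0321 and 0.0469). For 8 endothelial markers the sums were 440.3 to 723 and 176 to 388, with Kdr lower (limma adjusted p = 0.0321). Kdr was dim, with signals of 11.3 to 22.1 in control and of 5.63 to 7.25 in lithium. The 8 pericyte and smooth muscle markers summed to 1153 to 1885 in control and to 1049 to 2028 in lithium, which overlapped. Pdgfrb of these fell (limma adjusted p = 0.0401), and 2 of the 8 had a positive log2 difference. With the replicate block Col3a1, Lum, Kdr and Pdgfrb had limma adjusted p-values of 0.0550 to 0.125. The 6 adipocyte markers summed to 119 to 455 in control, control replicate 3 being the highest, and to 116 to 152 in lithium. The 8 skeletal muscle markers summed to 33.7 to 96.5 in control and to 39.2 to 56.4 in lithium apart from lithium replicate 2, at 492. Without that array Insig1 was still the 1 gene of the 32 that passed (limma adjusted p = 0.0379). Without control replicate 3, the array highest in adipocyte markers, Insig1 did not pass (limma adjusted p = 0.0525), and 0 of the 32 did. The 7 photoreceptor markers summed to 83.9 to 119 in control and to 80.8 to 104 in lithium, with 0 past the test. The part of these cell types in the values of Insig1, Abca1, Lpl and the sterol enzymes was not tested.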

How the data were processed

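The authors deposited MAS5 signals, linear intensities scaled to a common trimmed mean, 1 value per probe set for each of the 8 arrays, made with GeneSpring software. Of 45101 probe sets 64 Affymetrix controls were left out, and 45037 were tested. One symbol was given to 34958 probe sets, several to 932 and none to 9211. Intensities were floored at 1 (13.1 to 16.6% of the values of an array) before the log2 step. Differences between lithium and control came from lmFit and eBayes in limma (version 3.58.1, R 4.3.3), with Benjamini-Hochberg adjustment over all tested probe sets and no block. Means and SDs are of linear signals. Precision is limited by the number of arrays. The members, gene lists and rules for the genes named were chosen with earlier results of these data known. The rule named each member past the adjusted p or separated between the groups at an unadjusted p under 0.05, and the first or rate-limiting steps, regulators and targets, with values on every array, and the genes of the other lists past the adjusted p.

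Same-numbered arrays of the 2 groups deviated together in all 4 cases (correlation 0.130 to 0.197, each above the limit of 0.1). So did array 1 with array 2, and array 3 with array 4, of the opposite group (0.0706 to 0.131), and number pairs and array pairs are therefore not separated. The labels name no pairing. The reported values are from the fit without the block, and the blocked value stands beside a result where it changes the call. Other settings tried were median centring, quantile normalization, log2 of the signal plus 16, a level of 200 before the test, averaging the probe sets of a gene, no _x_at or _s_at probe sets, a trended variance, array weights, the replicate block, a term for array pairs and leaving out each array. The fit was tested on simulated data with known shifts. Gene symbols of the 32 members matched RefSeq by Entrez identifier. Promoter motifs were searched in Python 3.11.15, and figures were drawn with matplotlib 3.10.9.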

Additional observations from a re-analysis of the deposited data

Results flagged for a closer look

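In 64 groups of 4 arrays, a member in 1 treatment group each, 1 array stood apart by Dixon's test: Insig1 in lithium replicate 1, with a signal of 894 below 963 to 974 on the other lithium arrays. Chance flags about 1 in 20 groups, so a single flag in 64 is fewer than that.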

How the results depend on the processing

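The number of the 32 genes that passed as lower was 1, and it was 0 after median centring, 2 where only probe sets with a level of 200 in the higher group were tested (the second, Abca1, met that level through its control mean alone, so that this call carries no weight), 7 with a term separating arrays 1 and 2 from arrays 3 and 4, and 0 to 1 on leaving out each array (0 without control replicate 3). With that term, leaving out each array gave 2 to 6 in fits chosen after seeing the data. The replicate block also gave 1, Tm7sf2 (adjusted p = 0.0477) in place of Insig1 (0.0765), and changed no other call of a member. No gene of the 32 was higher in any fit. All tested probe sets that passed were 1050 in the main setting, 124 with the block, 2834 with the term, 1735 with 16 added and 685 with the level limit. Median centring gave 152 genes higher and 429 lower (73.8% lower), against 214 and 373 (63.5%).

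Log2 differences changed sign after median centring for Hmgcs1 (0.018), Lss (0.024) and Scap (0.0087), after quantile normalization for Scd2 (-0.034), on averaging the probe sets of a gene for Fdft1 (0.28), Scap (0.27), Scd1 (-0.25) and Scd2 (-0.11), without _x_at or _s_at probe sets for Lss (0.20) and Hsd17b7 (0.020), and with array weights for Lss (0.063) and Scd2 (-0.0042). Within arrays 1 and 2 the sign changed for Hmgcs1 (0.041), Lss (0.27) and Scd2 (-0.00040), and within arrays 3 and 4 for Sqle (-0.037), Msmo1 (-0.015), Acaca (-0.070) and Scd1 (-0.049). On leaving out each array, the ranges crossed 0 for Sqle (-0.095 to 0.19), Acaca (-0.11 to 0.21), Msmo1 (-0.027 to 0.18), Lss (-0.31 to 0.17), Scd2 (-0.069 to 0.083), Scap (-0.16 to 0.012), Scd1 (-0.025 to 0.16), Ebp (-0.32 to 0.0062), Hmgcs1 (-0.19 to 0.0037) and Me1 (-0.039 to 0.15). The averages of Fdft1 and Scap take in dim probe sets with positive log2 differences (1.01 and 0.70 for Fdft1, 0.63 for Scap). The brighter probe sets had -0.26 and -0.32 for Fdft1 and -0.08 for Scap. Beyond that, the cause of the sign changes was not tested. Group medians ranged from -0.57 to -0.31 for the early mevalonate, -0.34 to -0.12 for the late sterol, -0.40 to -0.22 for the SREBP control and -0.57 to -0.34 for the LXR genes, and from -0.040 to 0.14 for the fatty acid genes. The order of the early mevalonate and LXR medians differed between settings.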
